A study of Homo sapiens with 8 samples.

Results

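Matrix and adhesion genes were examined in HepG2, an established human hepatocellular carcinoma line, after knockdown of NAT10, the enzyme that acetylates cytidines in RNA. The list held 46 genes, out of 86369 genes in the count table, and was drawn up with earlier results of these data known. They were chosen by name as matrix, matrix-crosslinking, integrin, cadherin and epithelial-mesenchymal transition (EMT) regulator genes. All 46 had a row in that table, and 36 had enough counts to be tested, beside 13840 tested genes in all. Of the 8 libraries, 4 came from cells transfected with a negative control siRNA (siCtrl) and 4 from cells transfected with an siRNA against NAT10 (siNAT10). Both groups were lipofected HepG2 cultures, and RNA was taken 2 days after transfection. Replicates 1 and 2 of each group formed batch 1, and replicates 3 and 4 formed batch 2. The protocols give no siRNA sequence and name a single siRNA treatment against NAT10, so these data hold no independent siRNA to compare it with.

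The extracellular matrix is a network of collagens, laminins and glycoproteins that cells secrete and hold through integrins and syndecans. Lysyl hydroxylases modify collagen lysines in the endoplasmic reticulum, and after secretion lysyl oxidases turn lysines into reactive aldehydes that crosslink collagen and elastin fibres. Matrix metalloproteinases cut the network and TIMP proteins inhibit them. In the liver, crosslinked matrix accumulates in fibrosis, and EMT regulators such as the Snail, ZEB and TWIST factors repress epithelial cadherin in carcinoma cells.

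Of the 36 tested members, 4 fell in siNAT10 and 0 rose (edgeR quasi-likelihood test, Benjamini-Hochberg adjusted p under 0.05 over all 13840 genes). The 4 were MATN3, a cartilage-type matrix adaptor protein, and the lysyl oxidases LOX, LOXL2 and LOXL4. MATN3 fell 2.51-fold, LOXL2 2.38-fold, LOX 1.47-fold and LOXL4 1.45-fold. Over all tested genes 2.28% were called, 1.46% as lower and 0.816% as higher. Because the list was drawn up with earlier results of these data known, setting its calls beside these shares tests nothing. Among the 5 lysyl oxidases, 3 were called, and among the 30 tested members other than MATN3 and the lysyl oxidases 0 were called, with 5 of those 30 at an unadjusted p under 0.05 in edgeR and 0 called by DESeq2. Over all tested genes 15.7% had an unadjusted p under 0.05 in edgeR, so the 5 are near that background. The member count was 2 if replicate 1 of siCtrl or else replicate 2 or 3 of siNAT10 was left out, in batch 1 alone or without the batch term it was 1, and in batch 2 alone 0. The median log2 fold change was -0.08 over the 36 members and -0.0024 over all tested genes.

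**Figure D1:**
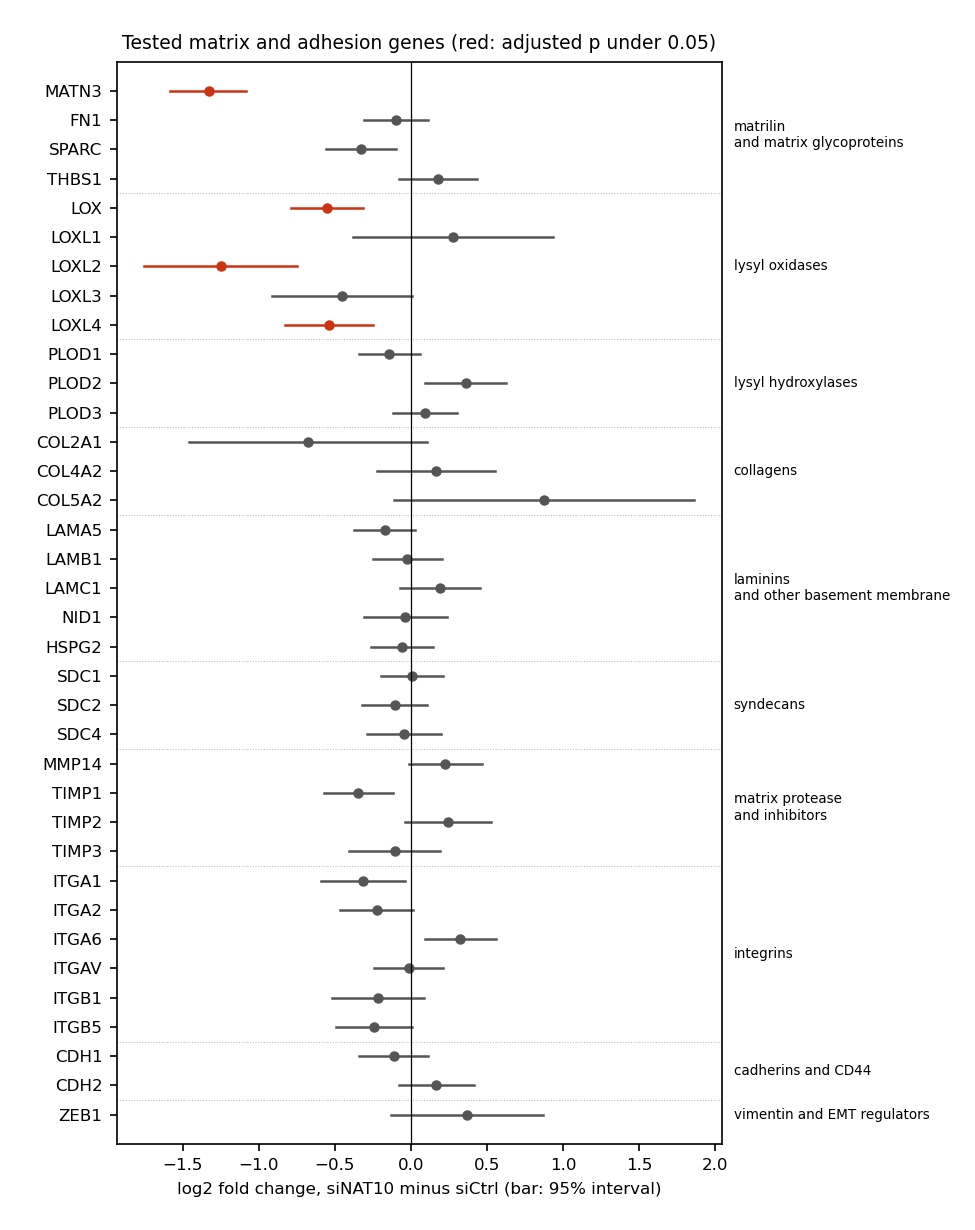
Fitted log2 fold change (x axis, siNAT10 minus siCtrl) of the 36 tested genes (y axis) with 95% intervals, grouped by role; red marks an adjusted p under 0.05. The red points are MATN3, LOX, LOXL2 and LOXL4, and intervals are wide for LOXL1, COL2A1 and COL5A2.

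The depth and identity of the libraries bear on every value. Libraries held 9731718 to 27977110 counts, and the shallowest, siNAT10 replicates 3 and 4, were both in batch 2. Levels are CPM values (counts relative to the TMM-scaled library size), and because each count comes from a transcript's 3′ end the scale needs no correction for length. The targeted gene checked the labels: NAT10 stood at 44.7, 39.2, 77.8 and 48.9 CPM in siCtrl replicates 1 to 4 and at 13.1, 12.2, 20.1 and 22.3 CPM in siNAT10 replicates 1 to 4. All siNAT10 libraries were below all siCtrl libraries, and 31.6% of the siCtrl level was left. Of 8 hepatocyte-derived markers, 7 were tested and 0 were called, with a summed level of 7360 to 7920 CPM in siCtrl and 5970 to 6590 CPM in siNAT10. ALB and TTR were lower in all siNAT10 libraries than in all siCtrl libraries (log2 fold change -0.37 and -0.30, edgeR adjusted p 0.072 and 0.17). AFP, SERPINA1 and APOA1 had log2 fold changes of -0.275, -0.46 and -0.0083, with overlapping groups. FGB and HNF4A went the other way (log2 fold change 0.37 and 0.09), with overlapping groups. Over both groups ALB ranged from 3232 to 4627 CPM and AFP from 1265 to 1860 CPM. SERPINA1 ranged from 1.70 to 13.2 CPM, and APOB held 7 counts in all libraries together. HepG2 cells are known to secrete the proteins of ALB, AFP, SERPINA1 and APOB, so a low count in this table need not mean little RNA. Whether reads were lost in counting was not tested. Fibroblast markers summed to 31.2 to 41.4 CPM in siCtrl and 28.5 to 36.4 CPM in siNAT10, nearly all of it ACTA2, with 5 of 8 (COL1A2, COL3A1, DCN, LUM and THY1) at 0 counts. Of 5 endothelial markers none was tested and KDR and TEK were at 0 counts, with sums of 0.23 to 0.796 CPM in siCtrl and 0.0 to 0.278 CPM in siNAT10. Immune markers summed to 409 to 556 CPM in siCtrl and 333 to 388 CPM in siNAT10, of which all but 1.65 to 3.90 CPM was LYZ, and PTPRC and CD3E were at 0 counts. LYZ, a secreted lysozyme, fell (log2 fold change -0.42, edgeR adjusted p 0.043). The part of these marker levels in the results was not tested.

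MATN3 (ENSG00000132031; GRCh38 chr2:19992052-20012668, minus strand) encodes matrilin-3, an oligomeric protein that bridges collagen fibrils and other matrix components, best known from cartilage. Its level was 345.5, 414.1, 420.6 and 442.5 CPM in siCtrl replicates 1 to 4 and 176.9, 137.9, 145.0 and 186.3 CPM in siNAT10 replicates 1 to 4. The highest siNAT10 library lay well under the lowest siCtrl library, and the means were 405.6 ± 41.9 and 161.5 ± 23.7 CPM (SD, n = 4 each). The fitted log2 fold change was -1.33 ± 0.12 (SE; edgeR adjusted p 3.1e-05). In separate fits of the batches it was -1.27 in batch 1 and -1.38 in batch 2. The call was lost in batch 2 alone, 2 libraries against 2, with an edgeR adjusted p of 0.078. The last 500 bases of MATN3 are overlapped by the span, introns included, of WDR35-DT, a long non-coding gene read in the opposite direction. Whether exons of the pair overlap was not examined. The counting's strand setting is not given either, so whether reads of the pair were mixed is not known.

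The 3′ UTR of the MATN3 transcript holds 1 copy of the heptamer GTCTCTA, which is also present 1 time in the NAT10 transcript and 0 times in the NAT10 3′ UTR. The heptamer was chosen with the fold changes of these libraries known, because its carriers were called lower more often than other genes, and the shares given here restate that choice and test nothing. The capitals mark the heptamer, which starts 224 bases after the stop codon in a 3′ UTR of 1059 bases. The printed stretch, with 11 bases on each side of the heptamer, lies at GRCh38 chr2:19992870-19992898, minus strand, read from GENCODE 44.
MATN3 3′ UTR site: caaactttagtGTCTCTAagttatgactg
The 3′ UTR searched was that of each gene's Ensembl canonical transcript. Among 10884 tested genes with an annotated 3′ UTR, 1678 (15.4%) held the heptamer. Of these carriers 5.24% were called lower, against 1.02% of the other genes, and the median log2 fold changes were -0.06 and 0.0079. Carriers and other genes were not matched for 3′ UTR length. Among the 36 tested members 2 (5.56%) were carriers, MATN3 and SDC2, and SDC2 had a log2 fold change of -0.11. The 3′ UTRs of LOX, LOXL2 and LOXL4 held 0 copies. The part of the heptamer in the lower level of MATN3 was not tested.

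The lysyl oxidases are copper-dependent amine oxidases with a shared catalytic domain. LOX (ENSG00000113083; chr5:122063195-122078413, minus strand), the founding member, stood at 124.0, 120.1, 108.6 and 132.8 CPM in siCtrl replicates 1 to 4 and at 90.8, 92.4, 66.3 and 83.1 CPM in siNAT10 replicates 1 to 4. The groups did not overlap, and the lowest siNAT10 library was in batch 2. The fitted log2 fold change was -0.55 ± 0.11 (SE; edgeR adjusted p 0.017), -0.41 in batch 1 and -0.69 in batch 2. LOX was not called when replicate 1 of siCtrl or else replicate 2 or 3 of siNAT10 was left out (edgeR adjusted p up to 0.067), nor in either batch alone or without the batch term (edgeR adjusted p up to 0.415). The span of SRFBP1, read in the opposite direction, overlaps the LOX 3′ end, so the LOX count may be uncertain. For every overlap named here whole gene spans were compared, introns included, and shared exons were not examined. Within the annotation that gave the coordinates, 13 of the 36 tested members have the span of another gene over the last 500 bases. The same possible uncertainty holds for LOXL3, THBS1, PLOD2, LAMB1, HSPG2, TIMP1, TIMP3, ITGA1, ITGA6, ITGAV and CDH2. That annotation lacks 24911 identifiers of the count table, and overlaps with those were not checked. Genes not named for an overlap may therefore still have one.

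LOXL2 (ENSG00000134013; chr8:23296897-23425328, minus strand), which crosslinks basement membrane collagen and is known as a promoter of EMT, was a low gene. It stood at 3.64, 4.08, 5.06 and 5.49 CPM in siCtrl replicates 1 to 4 and at 1.48, 2.36, 1.57 and 1.96 CPM in siNAT10 replicates 1 to 4. These levels rested on 71 to 108 counts per siCtrl library and 20 to 68 per siNAT10 library, and the groups did not overlap. The fitted log2 fold change was -1.25 ± 0.24 (SE; edgeR adjusted p 0.011), -0.97 in batch 1 and -1.58 in batch 2. It was called in all 8 fits that left out a library, and it was not called in either batch alone or without the batch term (edgeR adjusted p up to 0.276).

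LOXL4 (ENSG00000138131; chr10:98247690-98268194, minus strand), a paralog of LOXL2 with scavenger receptor domains, stood at 15.3, 15.8, 14.6 and 16.5 CPM in siCtrl replicates 1 to 4 and at 10.0, 12.7, 11.3 and 8.60 CPM in siNAT10 replicates 1 to 4. All siNAT10 libraries were below all siCtrl libraries. The log2 fold change was -0.54 ± 0.14 (SE), and the edgeR adjusted p of 0.0498 lay just under the threshold. The call was lost in 14 of 17 alternatives, among them all 8 fits without a library (edgeR adjusted p 0.069 to 0.158), with the fold change between -0.63 and -0.45 throughout.

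The other family members were low. LOXL3 stood at 3.60, 3.22, 3.75 and 4.12 CPM in siCtrl and at 2.85, 2.92, 2.04 and 2.84 CPM in siNAT10 (replicates 1 to 4). Its groups did not overlap either, but its log2 fold change of -0.45 ± 0.22 (SE) was not called (edgeR adjusted p 0.33), and HTRA2, read in the opposite direction, overlaps its 3′ end. LOXL1, an elastin crosslinker, ranged from 1.13 to 1.64 CPM in siCtrl and from 1.17 to 2.23 CPM in siNAT10, with overlapping groups. Its log2 fold change was 0.28 with a 95% interval from -0.38 to 0.93. The 5 lysyl oxidases together summed to 147.7, 144.8, 133.7 and 160.1 CPM in siCtrl replicates 1 to 4 and to 106.5, 112.6, 83.1 and 97.7 CPM in siNAT10 replicates 1 to 4. LOX supplied 79.9% to 85.3% of the family's counts in every library, so the sum follows LOX. In bulk RNA, less RNA per cell and fewer cells with that RNA cannot be told apart.

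**Figure D2:**
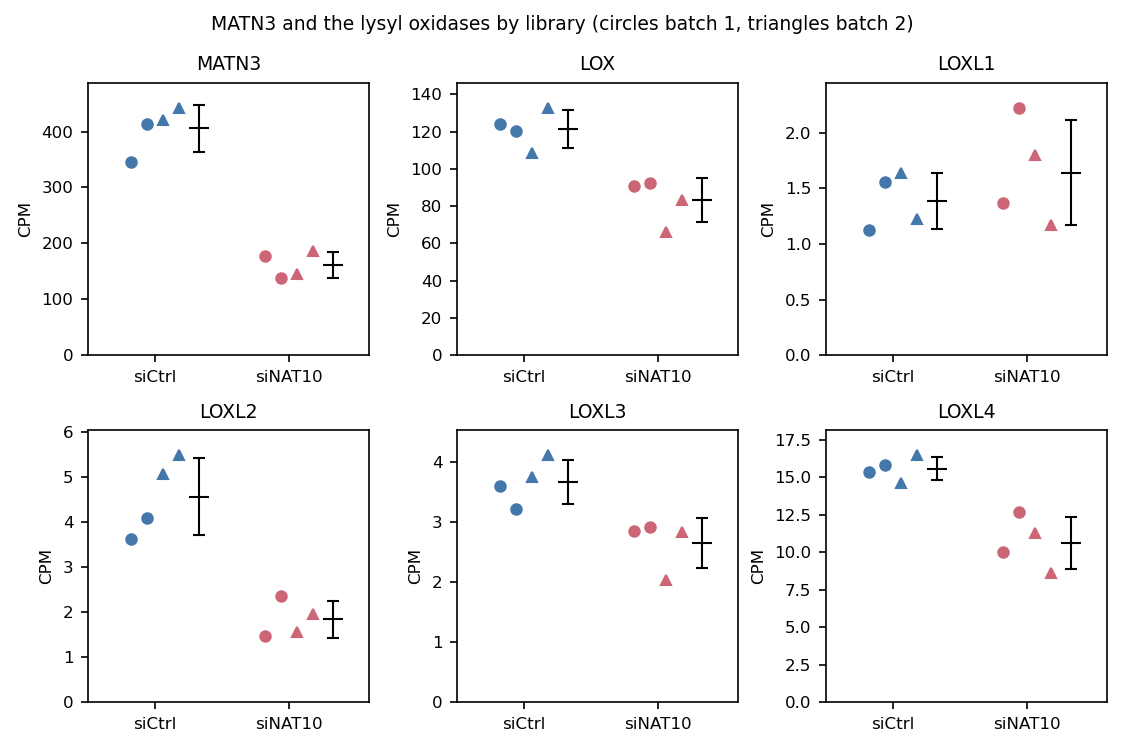
CPM (y axis, from 0) of MATN3 and the 5 lysyl oxidases in the 4 siCtrl and 4 siNAT10 libraries (x axis); circles are batch 1, triangles batch 2, and the black mark and bar are the mean and SD of a group. The siNAT10 points lie under all siCtrl points for MATN3, LOX, LOXL2, LOXL3 and LOXL4 and mix with them for LOXL1.

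The promoters of MATN3, LOX and LOXL4 are shown because these genes fell. The promoter of LOXL2, which also fell, is not shown or described here. Each is 300 bases from the RefSeq table for GRCh38.p14, 250 before and 50 after the start, on the minus strand: chr2:20012619-20012918 for MATN3, chr5:122078210-122078509 for LOX and chr10:98268145-98268444 for LOXL4. Of the 46 listed genes 35 were found in that table. Capitals mark matches, on either strand, to TGANTCA (AP-1), CATTCC (TEAD), ACGTG (the hypoxia-inducible factor core), CACCTG (the Snail and ZEB E-box), TATAAA (the core promoter box of that name) and GGGCGG (Sp1).
MATN3: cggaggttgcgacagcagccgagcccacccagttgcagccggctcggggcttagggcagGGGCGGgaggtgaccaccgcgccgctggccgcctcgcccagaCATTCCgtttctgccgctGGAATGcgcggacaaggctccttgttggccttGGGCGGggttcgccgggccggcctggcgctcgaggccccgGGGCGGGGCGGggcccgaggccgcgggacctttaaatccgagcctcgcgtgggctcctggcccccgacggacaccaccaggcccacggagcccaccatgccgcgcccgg
LOX: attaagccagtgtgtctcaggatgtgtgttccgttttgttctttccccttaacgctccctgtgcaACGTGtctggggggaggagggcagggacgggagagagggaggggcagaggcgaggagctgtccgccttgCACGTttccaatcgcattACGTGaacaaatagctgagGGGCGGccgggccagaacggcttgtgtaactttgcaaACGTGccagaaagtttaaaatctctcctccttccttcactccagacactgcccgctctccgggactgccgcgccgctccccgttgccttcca
LOXL4: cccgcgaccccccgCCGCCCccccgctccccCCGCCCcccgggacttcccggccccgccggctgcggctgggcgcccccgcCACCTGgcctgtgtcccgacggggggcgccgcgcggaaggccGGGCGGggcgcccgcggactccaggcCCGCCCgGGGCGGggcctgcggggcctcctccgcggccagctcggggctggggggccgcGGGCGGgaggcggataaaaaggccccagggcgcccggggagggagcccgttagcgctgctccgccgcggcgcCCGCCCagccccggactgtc
MATN3 held 2 TEAD matches and 4 Sp1 matches, of which 1 pair overlaps. LOX held 4 hypoxia-inducible factor core matches and 1 Sp1 match, and LOXL4 held 1 E-box and 7 Sp1 matches. Over 35093 promoters of this length, a match was present in 7.71% for AP-1, 14.0% for TEAD, 21.4% for the hypoxia-inducible factor core, 20.6% for the E-box, 11.5% for TATA and 44.9% for Sp1. GC content was 75.0% for MATN3, 58.0% for LOX and 85.3% for LOXL4, beside a median of 58.7% over these promoters. Of the motifs searched, Sp1 was the motif matched in all 3 windows shown, which leave out LOXL2, and it is also the most frequent over all promoters.

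The other matrix glycoproteins did not pass the test. FN1, fibronectin, the abundant plasma and matrix adhesion protein of hepatocytes, stood at 638.3, 679.6, 524.2 and 515.9 CPM in siCtrl replicates 1 to 4 and at 657.0, 563.5, 463.2 and 520.8 CPM in siNAT10 replicates 1 to 4. All its batch 1 libraries lay above all its batch 2 libraries while the siRNA groups overlapped, and its log2 fold change was -0.10 with a 95% interval from -0.31 to 0.12. SPARC, a collagen-binding matricellular protein, had a log2 fold change of -0.33 ± 0.11 (SE; edgeR adjusted p 0.135). THBS1, thrombospondin-1, lay between 10.5 and 34.7 CPM, with all batch 2 libraries above all batch 1 libraries.

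The lysyl hydroxylases, which modify collagen lysines inside the cell, gave 0 calls among 3. PLOD1 stood at 811.5, 832.2, 685.1 and 714.5 CPM in siCtrl replicates 1 to 4 and at 761.2, 779.1, 618.8 and 607.4 CPM in siNAT10 replicates 1 to 4. Within each batch the siNAT10 libraries were the lower pair, but the log2 fold change was -0.14 (95% interval -0.34 to 0.06). PLOD2, whose product hydroxylates the collagen telopeptides used in stable crosslinks, stood at 408.9, 496.2, 405.7 and 533.5 CPM in siCtrl and at 718.0, 540.2, 529.2 and 583.4 CPM in siNAT10. The groups overlapped by siCtrl replicate 4 and siNAT10 replicate 3, and the log2 fold change of 0.36 ± 0.13 (SE) was not called (edgeR adjusted p 0.16).

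Of 6 collagens, 3 were tested and 0 called. COL4A2, a chain of basement membrane collagen, stood at 3.71, 5.01, 6.14 and 5.35 CPM in siCtrl replicates 1 to 4 and at 4.93, 5.18, 5.10 and 7.33 CPM in siNAT10 replicates 1 to 4. The groups overlapped, with a log2 fold change of 0.17 (95% interval -0.22 to 0.55). COL2A1, the main cartilage collagen, and COL5A2, a chain that regulates fibril diameter, had log2 fold changes of -0.68 and 0.87, with 95% intervals from -1.46 to 0.11 and from -0.11 to 1.86. Their libraries held 4 to 70 and 4 to 25 counts, and libraries of the same group and batch also differed, as COL2A1 did with 0.99 and 2.40 CPM in siNAT10 replicates 1 and 2. Both intervals include 0.

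Of 7 basement membrane genes, 5 were tested and 0 called, with log2 fold changes between -0.17 and 0.19. HSPG2, perlecan, a heparan sulfate proteoglycan, stood at 172.4, 176.2, 116.2 and 128.7 CPM in siCtrl replicates 1 to 4 and at 153.2, 172.9, 126.6 and 115.0 CPM in siNAT10 replicates 1 to 4. Its batches separated and its siRNA groups overlapped, with a log2 fold change of -0.06 (95% interval -0.26 to 0.15). The laminin chains LAMA5 and LAMC1 had log2 fold changes of -0.17 and 0.19 (edgeR adjusted p 0.41 and 0.50), and LAMB1 and NID1, the linker nidogen-1, had -0.02 and -0.04.

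The syndecans, transmembrane heparan sulfate proteoglycans that act as co-receptors for matrix and growth factors, gave 0 calls among 3. SDC4 stood at 656.6, 818.0, 552.0 and 696.2 CPM in siCtrl replicates 1 to 4 and at 815.9, 716.9, 542.5 and 583.7 CPM in siNAT10 replicates 1 to 4, with overlapping groups. SDC1, SDC2 and SDC4 had log2 fold changes of 0.0067, -0.11 and -0.05, and their 95% intervals together ran from -0.32 to 0.21.

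Among the membrane protease MMP14 and 3 TIMP inhibitors 0 were called. TIMP1, a secreted inhibitor of many metalloproteinases, stood at 91.8, 77.7, 83.0 and 76.9 CPM in siCtrl replicates 1 to 4 and at 75.1, 58.6, 65.4 and 60.2 CPM in siNAT10 replicates 1 to 4. The groups did not overlap, yet the log2 fold change of -0.35 ± 0.11 (SE) was not called (edgeR adjusted p 0.11), and SYN1, read in the opposite direction, overlaps its 3′ end. On the log2 scale the differences were 0.24 for TIMP2, 0.23 for MMP14 and -0.11 for TIMP3, each with overlapping groups.

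Integrins pair an alpha with a beta chain to bind matrix, and of 7 listed 6 were tested and 0 called. ITGB5, which pairs with ITGAV to bind vitronectin, stood at 582.1, 619.7, 768.2 and 667.2 CPM in siCtrl replicates 1 to 4 and at 629.3, 477.5, 615.2 and 501.3 CPM in siNAT10 replicates 1 to 4. The groups overlapped, with -0.24 ± 0.12 (SE, log2 fold change; edgeR adjusted p 0.34). ITGA6, a laminin receptor chain, stood at 172.7, 187.0, 182.3 and 204.8 CPM in siCtrl and at 273.7, 216.2, 238.0 and 206.4 CPM in siNAT10. It was the member whose siNAT10 libraries all lay above all siCtrl libraries, and its log2 fold change of 0.32 ± 0.11 (SE) was not called (edgeR adjusted p 0.15). The collagen receptor chains ITGA1 and ITGA2 had log2 fold changes of -0.31 and -0.22, ITGB1 had -0.22 and ITGAV -0.02.

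CDH1, E-cadherin, the epithelial junction protein, stood at 281.6, 342.6, 311.7 and 336.2 CPM in siCtrl replicates 1 to 4 and at 333.1, 280.5, 274.0 and 288.6 CPM in siNAT10 replicates 1 to 4. Its log2 fold change was -0.11 (95% interval -0.34 to 0.11), and that of CDH2, N-cadherin, was 0.17 (95% interval -0.08 to 0.41). Both cadherins had overlapping groups and were not called. ZEB1, a repressor of E-cadherin, was the 1 tested gene among vimentin and the EMT regulators. It stood at 5.20, 3.51, 2.81 and 2.38 CPM in siCtrl and at 4.82, 5.04, 2.75 and 5.48 CPM in siNAT10 (replicates 1 to 4). The groups overlapped, with a log2 fold change of 0.37 (95% interval -0.13 to 0.87).

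The 10 members without enough counts for the test were COL1A1, COL4A1, COL18A1, LAMA1, AGRN, ITGA5, CD44, VIM, SNAI2 and TWIST1. VIM, the mesenchymal intermediate filament, and TWIST1 were listed at 0 counts in all 8 libraries, which allows up to 0.0369 CPM over the siCtrl group and 0.0434 CPM over the siNAT10 group (3 counts of each group's total, counting error only). AGRN held 29 counts in all, SNAI2 13, COL1A1 6, ITGA5 5, COL4A1 4, LAMA1 4, CD44 3 and COL18A1 1. AGRN (from the same strand), COL18A1 and ITGA5 have 3′ ends that other genes overlap. Whether reads of any of the 10, VIM and COL4A1 included, were lost in counting was not tested, so these counts and limits describe the table and not the RNA in the cells. No fold is given for these members.

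Over all 8 libraries, the siNAT10 values lay below every siCtrl value for 6 of 36 members (MATN3, LOX, LOXL2, LOXL3, LOXL4 and TIMP1) and above every siCtrl value for 1 (ITGA6). Over all tested genes these shares were 3.15% and 2.25%. As the members were chosen with earlier results of these data known, this comparison is no test. Within batches, 29 of 36 members had the same sign of fold change in batch 1 and batch 2, as did 61.9% of the 13261 genes tested in both batches. This difference in share was not tested. A difference in siRNA effect between batches (the interaction term) passed in edgeR for 0 of 36 members and for 0.0% of all tested genes. At an unadjusted p under 0.05 it held 0 of 36 members in edgeR and 0 in DESeq2, against 3.04% of all tested genes in edgeR. The lowest interaction p was 0.103, for ITGB1, which had log2 fold changes of -0.44 in batch 1 and 0.03 in batch 2.

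Batches differed in level for several members, given here as values without a test. THBS1 averaged 11.6 CPM in batch 1 and 28.3 CPM in batch 2, and TIMP3 15.1 and 27.5 CPM. ITGA2 averaged 87.5 CPM in batch 1 and 42.2 CPM in batch 2, and MMP14 73.6 and 41.4 CPM. In all, batch means differed by over 1.5 times for 6 of 36 members, which also include COL2A1 and COL5A2, while those of MATN3 (269 and 299 CPM) and LOX (107 and 97.7 CPM) were close.

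**Figure D3:**
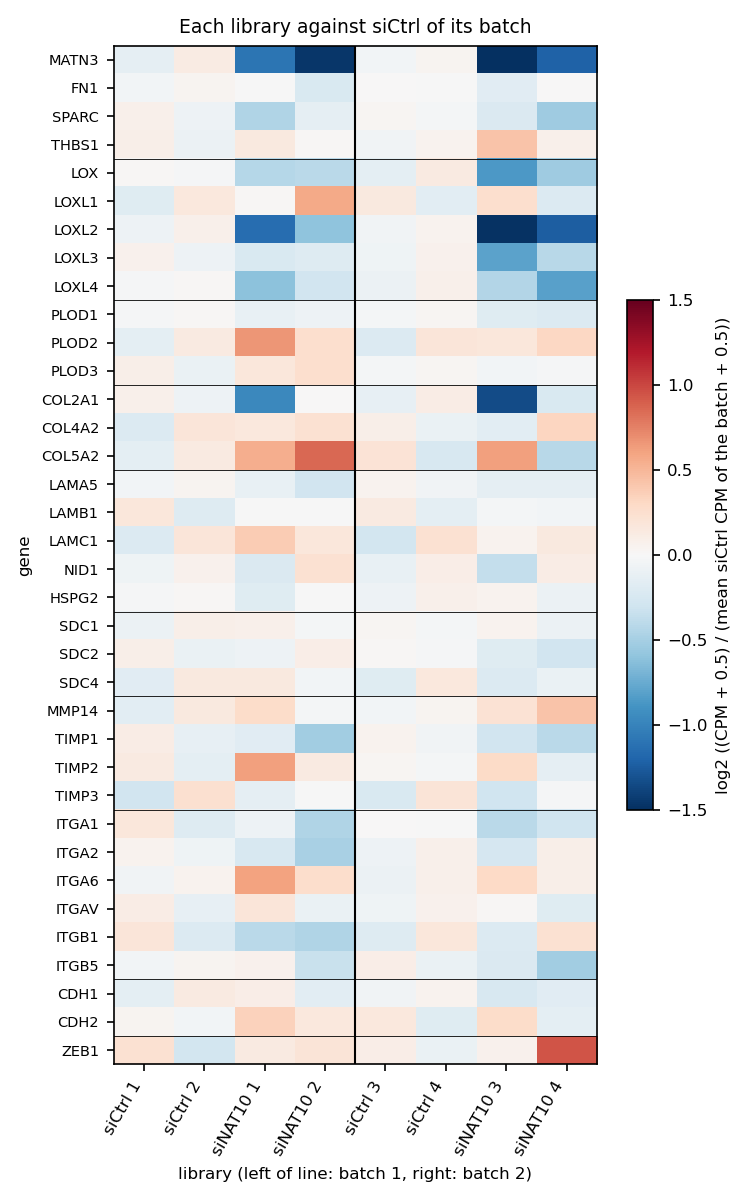
Each of the 36 tested genes (y axis) in each library (x axis), as the log2 ratio of CPM plus 0.5 to the mean siCtrl CPM of the same batch plus 0.5; blue is lower, red higher, and the colour scale ends at 1.5 in either direction. MATN3, LOX, LOXL2, LOXL3 and LOXL4 are blue in all 4 siNAT10 libraries. Other rows, among them TIMP1, SPARC, ITGA1, PLOD1 and LAMA5, are also lower in all 4, and most other rows are pale or mixed.

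The wider pathway was read from 8 lists with 195 genes that are no members, of which 106 were tested. In these lists 3 genes rose and 3 fell (5.66% called, against 2.28% of all tested genes), with a median log2 fold change of -0.07. Since these lists were also chosen with earlier results of these data known, the shares set side by side are no test. With replicate 1 or 2 of siCtrl or else replicate 2 of siNAT10 left out the count of 6 became 3, and without the batch term or in batch 2 alone 0. The count was larger by DESeq2 (7 lower and 5 higher) and with no filter on low counts (9 lower and 4 higher of 160 tested). DSC2, the desmosomal cadherin desmocollin-2, rose from 25.5, 17.9, 31.8 and 31.5 CPM in siCtrl to 44.4, 44.7, 55.6 and 48.3 CPM in siNAT10 (replicates 1 to 4). Its groups did not overlap, with a log2 fold change of 0.87 ± 0.12 (SE; edgeR adjusted p 0.0013). It was the 1 call among 15 tested cadherin and junction genes.

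COL7A1, the anchoring fibril collagen, rose from 57.1, 60.5, 40.1 and 45.2 CPM in siCtrl to 111.3, 84.5, 58.4 and 64.5 CPM in siNAT10 (replicates 1 to 4), and the siNAT10 pair was the higher in each batch. Its fitted log2 fold change was 0.63 ± 0.11 (SE; edgeR adjusted p 0.0079), the 1 call among 5 tested other collagens. FERMT2, kindlin-2, which activates integrins from inside the cell, rose (log2 fold change 0.53, edgeR adjusted p 0.043), the 1 call among 23 tested integrin and focal adhesion genes. Its groups overlapped, and it was called in 1 of the 8 fits that left out a library (edgeR adjusted p 0.035 to 0.156).

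The 3 genes that fell included 2 of 12 tested matrix glycoproteins. VTN, vitronectin, the plasma adhesion protein, fell from 43.5, 45.1, 34.2 and 46.7 CPM in siCtrl to 24.2, 28.8, 25.0 and 22.2 CPM in siNAT10 (replicates 1 to 4), without overlap (log2 fold change -0.75, edgeR adjusted p 0.0036). EFEMP2, fibulin-4, an elastic fibre protein, fell (log2 fold change -0.59, edgeR adjusted p 0.015), and was not called when any of siCtrl replicates 1 and 2 or siNAT10 replicate 2 was left out (edgeR adjusted p up to 0.069). P3H4, a component of the endoplasmic reticulum complex needed for collagen lysine hydroxylation, was the 1 call among 20 tested collagen folding and processing genes. It fell (log2 fold change -0.42, edgeR adjusted p 0.043), and that call was lost in all 8 fits without a library (edgeR adjusted p 0.061 to 0.193). The spans of other genes overlap the 3′ ends of VTN, EFEMP2 and FERMT2, so these counts may be uncertain. For VTN, a protein-coding gene on the same strand is among them.

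The remaining lists gave 0 calls in edgeR with the filter on low counts; without that filter ADAM17 and GPC2 were called (edgeR adjusted p 0.0196 and 0.0272), and DESeq2 also called ADAM17 (adjusted p 0.0221). Among 15 tested matrix proteases and regulators the lowest p was that of ADAM17, the sheddase for membrane proteins, (log2 fold change -0.41, edgeR adjusted p 0.061). Among 11 tested genes of other basement membrane components and glypicans it was that of GPC2, with -0.86 (edgeR adjusted p 0.25). Among 5 tested EMT regulators it was that of TCF3, with 0.16 (edgeR adjusted p 0.65). The span of IAH1, read in the opposite direction, overlaps the ADAM17 3′ end, so the ADAM17 count may be uncertain.

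**Figure D4:**
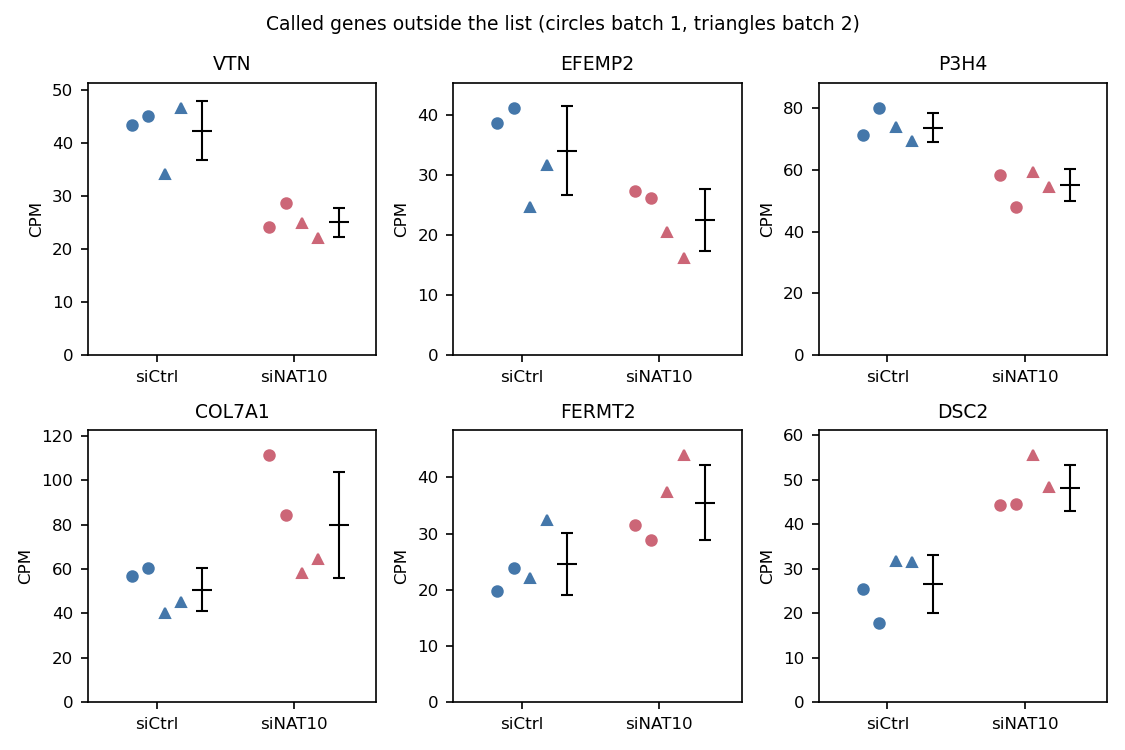
CPM (y axis, from 0) in the 4 siCtrl and 4 siNAT10 libraries (x axis) of the 6 called genes of the wider pathway; circles are batch 1, triangles batch 2, and the black mark and bar are the mean and SD of a group. VTN, EFEMP2 and P3H4 are lower and COL7A1, FERMT2 and DSC2 higher in siNAT10, with groups that do not overlap for VTN, P3H4 and DSC2.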

How the data were processed

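The deposited values are whole-number counts per Ensembl gene for 8 libraries. Per the submitters' processing notes, the authors used Trim Galore 0.6.10, cutadapt 3.5, STAR 2.7.9a, featureCounts and GRCh38. The annotation, the strand setting and the handling of overlapping genes are not given in the sources used here, and the labels give the 3′ library kit both as forward and as reverse. Gene names, coordinates and 3′ UTRs came from GENCODE 44, which held 61458 of 86369 identifiers; 0 columns were unused. Genes were tested across all genes in R 4.3.3 with edgeR 4.0.16 (filterByExpr at 10 counts, TMM, quasi-likelihood test, batch and siRNA as terms) and called where the Benjamini-Hochberg adjusted p was under 0.05. The scripts were tested on simulated data. DESeq2 1.42.0, other scalings and filters, no batch term, a replicate block, each batch alone and each library left out were the alternatives. Same-numbered libraries deviated together (correlations of 0.392, 0.384, 0.451 and 0.356 across genes), mostly by batch, since within batches these were -0.062 and 0.167. The labels do not say that replicates were separate cultures, so p-values measure the spread between these libraries, which may be technical. Named were MATN3, LOXL2, called members, the highest member and the 2 largest changes of each role, and called or lowest-p genes of the wider lists; other members are named to account for the whole list. Standard errors were the absolute log2 fold change divided by the square root of the edgeR F statistic. The 95% intervals were built from these with a t quantile. The limits given for genes at 0 counts cover counting error only. Members and lists were chosen with earlier results of these data known.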

Additional observations from a re-analysis of the deposited data

Results flagged for a closer look

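Each group of 4 values of NAT10 and the 36 tested members was searched for a library far from the other 3, by Dixon's ratio of its gap to the group's range. Of 74 groups 2 were found. For independent normal values the cutoff would give about 3.7 (1 in 20). Each group here mixes 2 batches, so that figure is only a rough guide. LOXL3 in siNAT10 replicate 3 stood at 2.04 CPM (26 counts), against 2.84 to 2.92 CPM in the other siNAT10 libraries. COL4A2 in siNAT10 replicate 4 stood at 7.33 CPM (75 counts), against 4.93 to 5.18 CPM in the other siNAT10 libraries.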

How the results depend on the processing

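With the replicate block 4 members, 8 genes of the wider lists (5 lower, 3 higher) and 454 genes over the whole table were called, against 4, 6 and 315 without it. The block changed no call of a named gene. Over the whole table the count was 595 with no filter on low counts, 601 by DESeq2, 15 without the batch term, 173 in batch 1 alone, 0 in batch 2 alone and 75 to 286 with a library left out (104 and 132 when it was replicate 1 and 2 of siCtrl, and 134, 75 and 178 when it was replicate 1, 2 and 3 of siNAT10). With scaling by library size alone 149 were lower and 138 higher, in place of 202 and 113. Called members numbered 1 without the batch term, 1 in batch 1 alone, 0 in batch 2 alone and 2 to 3 with a library left out. With either of the other scalings (RLE size factors or library size alone) 3 members were called. Called genes of the wider lists numbered 13 with no filter (9 lower, 4 higher), 12 by DESeq2 (7 lower, 5 higher), 0 without the batch term, 0 in batch 2 alone and 3 to 6 with a library left out. The sign of uncalled values changed for SDC4 (0.0581 in batch 1 alone, and -0.127 to 0.044 with a library left out), SDC2 (0.0203 in batch 1 alone) and TCF3 (-0.0429 in batch 2 alone). ADAM17 was called with no filter and by DESeq2, and GPC2 with no filter. Of 578 comparisons of single genes with an alternative, 510 kept their direction and side of the threshold, 59 lost the call, 3 gained it and 6 changed sign. Fits of a single batch have fewer libraries; the cause of the other shifts was not tested. LOXL1, COL2A1 and COL5A2 had 4 to 70 counts per library and wide intervals; the part of depth in these was not tested.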
